A study of Rattus norvegicus with 42 samples.

Results

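Levetiracetam (LEV) binds SV2A, a glycoprotein in the membrane of synaptic vesicles, and Sv2a, its relatives Sv2b and Sv2c and the calcium sensor gene Syt1 were examined here in the hippocampus of rat pups given LEV or phenobarbital (PB). The 4 genes were found by their symbols in the deposited count table, in which each had 1 transcript among 15516, and all 4 were among the 13062 transcripts that passed the filter on low counts. Male Sprague Dawley pups received 1 intraperitoneal injection at postnatal day 7 (P7), and the hippocampus was collected 72 hours later. The vehicle group (VEH, saline) held 13 animals, the PB group (75 mg/kg) 14 and the LEV group (200 mg/kg) 14. The labels name no transgene and no seizure model, and pups were taken 1 per litter for each treatment. A further VEH animal that the labels mark as excluded was kept out of every comparison, apart from alternative fits described as holding it. The question was whether the transcripts of the drug target of LEV and of its close partners differed after either drug.

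The SV2 proteins are transporter-like glycoproteins that span the vesicle membrane. They bear long sugar chains on the side facing the vesicle lumen and bind synaptotagmin 1. SV2A is found in most neurons, whereas SV2B and SV2C are more restricted, SV2C most of all. Synaptotagmin 1, the product of Syt1, senses the calcium that enters a nerve terminal and triggers fast, synchronous release of transmitter, and SV2 proteins help to keep it on vesicles after they are retrieved. LEV attaches to SV2A and only weakly if at all to the other members of the family, whereas PB prolongs chloride currents through GABA-A receptors.

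In the rn6 coordinates of the deposited table, the Sv2a transcript NM_057210 lay on chromosome 2 from 198324934 to 198336562. The Sv2b transcript NM_057207 lay on chromosome 1 from 136664201 to 136842248, the Sv2c transcript NM_031593 on chromosome 2 from 26502115 to 26699277, and the Syt1 transcript NM_001033680 on chromosome 7 from 50086644 to 50638799. Each interval runs over the whole gene, with exons, introns and untranslated regions. The 250 bases before the annotated start of each gene are shown because Sv2a, Sv2b and Syt1 had similar fold changes after PB, described below. The sequences are from RefSeq with the GRCr8 build, 5' to 3' on the strand of the gene, and capitals mark each GC box, the letters GGGCGG or their reverse complement CCGCCC.
Sv2a: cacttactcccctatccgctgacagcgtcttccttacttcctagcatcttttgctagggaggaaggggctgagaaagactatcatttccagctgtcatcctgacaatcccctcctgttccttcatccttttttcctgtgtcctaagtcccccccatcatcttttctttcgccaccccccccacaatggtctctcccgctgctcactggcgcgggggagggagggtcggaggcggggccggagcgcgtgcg
Sv2b: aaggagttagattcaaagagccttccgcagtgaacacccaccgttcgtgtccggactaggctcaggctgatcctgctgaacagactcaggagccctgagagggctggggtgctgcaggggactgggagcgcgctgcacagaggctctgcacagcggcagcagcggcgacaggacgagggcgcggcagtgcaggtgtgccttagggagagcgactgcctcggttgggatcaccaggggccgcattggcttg
Sv2c: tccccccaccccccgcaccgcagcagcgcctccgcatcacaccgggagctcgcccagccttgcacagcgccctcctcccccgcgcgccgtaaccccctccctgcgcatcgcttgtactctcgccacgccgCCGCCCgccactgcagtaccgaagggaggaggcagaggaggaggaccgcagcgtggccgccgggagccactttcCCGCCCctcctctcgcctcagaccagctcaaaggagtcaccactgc
Syt1: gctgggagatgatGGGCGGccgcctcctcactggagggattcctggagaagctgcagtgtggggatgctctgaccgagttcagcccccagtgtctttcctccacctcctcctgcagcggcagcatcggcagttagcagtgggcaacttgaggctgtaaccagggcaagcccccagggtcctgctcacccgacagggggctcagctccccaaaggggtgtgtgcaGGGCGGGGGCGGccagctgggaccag
In GRCr8 these windows are chr2:186430113-186430362 on the + strand for Sv2a, chr1:138562259-138562508 on the - strand for Sv2b, chr2:29163169-29163418 on the - strand for Sv2c and chr7:46244214-46244463 on the - strand for Syt1. The share of G and C was 58.0% for Sv2a, 64.0% for Sv2b, 72.0% for Sv2c and 66.0% for Syt1, against a median of 51.2% over the 33469 rat promoter windows of that length. GGGCGG on either strand was in 30.5% of all windows, and it occurred 3 times in the Syt1 window and 2 times in that of Sv2c, with no match in those of Sv2a and Sv2b. Both strands were also searched for the TATA box TATAAA (12.9% of all windows), the E-box CACGTG (5.59%), the cyclic AMP response element TGACGTCA (1.59%) and TTCAGCACC, the left part of the RE1 element bound by the repressor REST (0.305%). None of the 4 windows held any of these letters. No measurement here bears on binding at these sites.

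Total counts per animal ran from 9499492 to 14488134 in VEH, from 9586794 to 13140913 in PB and from 10112050 to 12482915 in LEV. The sample codes had a long form (CV, CP or CL, animals 1 to 6) or a short form (C, P or L, animals 7 to 14), and the form was a term in the model used here. It was the only label that could mark a batch, and the pups were bought over 2 orders, but the labels do not say what the form stands for. Across all transcripts 30.2% differed between the forms, and none of the 4 genes did (adjusted p from 0.266 to 0.947, edgeR quasi-likelihood F test, Benjamini-Hochberg over all transcripts). The library labelled VEH animal 1 went against the label of male pups, with 1 raw count of the Y-linked Eif2s3y and 0 of the Y-linked Ddx3, against 705 to 1028 and 475 to 891 in the other 40 animals. The differences of the 4 genes from VEH, their ratios and their correlations are given with and without it, a choice made after seeing the data. All 6 markers of hippocampal glutamatergic neurons had VEH means from 846 normalized counts for Prox1 to 13798 for Slc17a7. The choroid plexus list, whose tissue adjoins the hippocampus, ranged in summed level from 253 to 56518 in VEH, 270 to 88684 in PB and 363 to 66080 in LEV, and 0 of its 11 transcripts passed the test between any of the groups (0 at an unadjusted p under 0.05). The median summed level was 3068 in VEH, 8958 in PB and 23072 in LEV. All 11 transcripts had values above VEH after either drug, with a median log2 difference of 0.62 after PB and 0.79 after LEV. All levels below are normalized counts, scaled to the mean effective library, and they were not divided by transcript length, so levels are compared between animals and never between genes.

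Sv2a, the gene of the LEV target, was lower after PB than after VEH and than after LEV, and no difference between LEV and VEH was detected. Its lowest, median and highest levels were 5826, 6422 and 6748 normalized counts in VEH, 5221, 5911 and 6378 in PB, and 5592, 6549 and 7040 in LEV. The groups overlapped, although 5 PB animals lay below every VEH animal and 7 VEH animals above every PB animal. Means were 6394 ± 252 (SD, n = 13) in VEH, 5874 ± 375 (SD, n = 14) in PB and 6446 ± 409 (SD, n = 14) in LEV. Relative to VEH, Sv2a fell by 0.12 on the log2 scale after PB, or by 8.06% (SE 0.03 on the log2 scale, 95% interval -0.19 to -0.06, adjusted p = 0.0190, edgeR quasi-likelihood F test, Benjamini-Hochberg), and in 13 of 14 PB animals the level was under the mean of VEH animals with that code form. In whole hippocampus, fewer neurons and less RNA per neuron cannot be told apart.

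Sv2b, whose product is another vesicle glycoprotein of the family, was also lower after PB than after VEH, close to the threshold of the test. Its lowest, median and highest levels were 4385, 5658 and 6525 normalized counts in VEH, 4529, 5267 and 5673 in PB, and 4909, 5644 and 6112 in LEV. The PB range sat inside that of VEH, because VEH animal 9 had the lowest level of all 41 animals, whereas 6 VEH animals lay above every PB animal. The mean was 5644 ± 550 (SD, n = 13) in VEH, 5141 ± 334 (SD, n = 14) in PB and 5575 ± 335 (SD, n = 14) in LEV. Sv2b fell by 0.14 after PB relative to VEH on the log2 scale, or by 8.95% (SE 0.04, 95% interval -0.22 to -0.05, adjusted p = 0.0492, edgeR quasi-likelihood F test, Benjamini-Hochberg), and all 14 PB levels were under the mean of VEH animals with that code form. This call sat at the threshold. It was kept in 13 of the 41 fits that left out 1 animal, with log2 differences from -0.16 to -0.12. The adjusted p was 0.0727 without VEH animal 1, 0.0959 without VEH animal 10 and 0.0807 without PB animal 2 (edgeR quasi-likelihood F test), and it was 0.00679 without VEH animal 9. With animal number as a replicate block the adjusted p was 0.0793 in the same test, so the call was lost. The labels do not say whether an animal number marks a litter.

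Syt1, the calcium sensor of fast release, had a difference of similar size after PB that did not pass the test. Its lowest, median and highest levels were 4336, 5485 and 6152 normalized counts in VEH, 4077, 5076 and 5635 in PB, and 4708, 5501 and 6126 in LEV. The 3 groups overlapped over most of their range, and the lowest animals were PB animal 2 and VEH animal 9, which were also the lowest of their groups for Sv2b and Sv2c. The mean was 5446 ± 459 (SD, n = 13) in VEH, 5044 ± 431 (SD, n = 14) in PB and 5493 ± 404 (SD, n = 14) in LEV. The difference of PB from VEH was -0.11 on the log2 scale (SE 0.05, 95% interval -0.20 to -0.02, adjusted p = 0.151, edgeR quasi-likelihood F test, Benjamini-Hochberg), and 11 of 14 PB levels were under the mean of VEH animals with that code form. Without VEH animal 1 the difference was -0.11 with an adjusted p of 0.160. Without VEH animal 9 the difference was -0.13 with an adjusted p of 0.0507, and without PB animal 2 it was -0.09 with an adjusted p of 0.250 (edgeR quasi-likelihood F test).

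Sv2c, the family member with the narrowest distribution in the brain, gave few reads in this tissue and was measured with the least precision. Raw counts ran from 34 to 104 per animal, against 4607 to 7952 for Sv2a, 3937 to 7116 for Sv2b and 3893 to 6822 for Syt1. Its lowest, median and highest levels were 37.9, 67.7 and 94.4 normalized counts in VEH, 45.6, 62.1 and 87.2 in PB, and 40.3, 62.2 and 95.2 in LEV. The 3 groups overlapped almost completely. The difference of PB from VEH was -0.04 on the log2 scale (SE 0.12, 95% interval -0.28 to 0.20, adjusted p = 0.892, edgeR quasi-likelihood F test, Benjamini-Hochberg), and without VEH animal 1 it was -0.0067 (adjusted p = 0.985, edgeR quasi-likelihood F test). A fall of the size seen for Sv2a lies inside that interval and could not be detected for Sv2c at this depth.

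**Figure D1:**
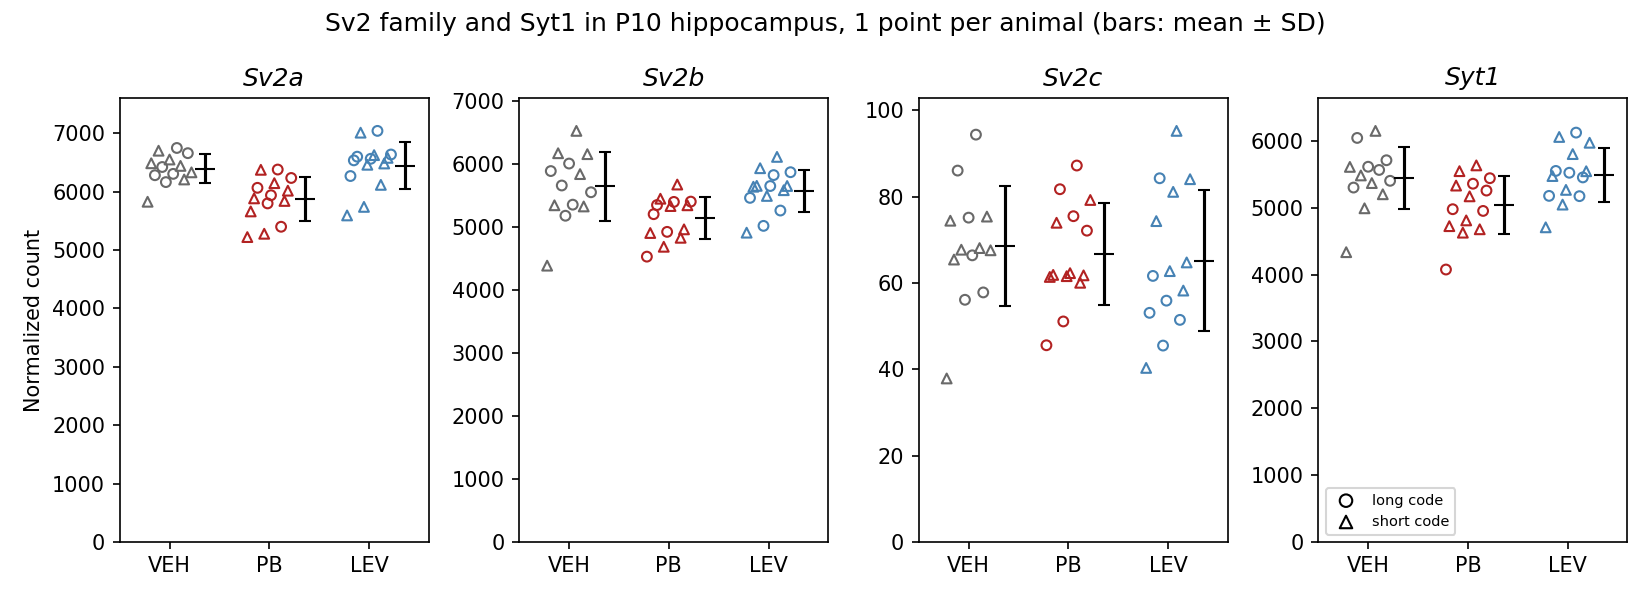
Normalized counts of Sv2a, Sv2b, Sv2c and Syt1, each on its own linear axis from 0, with 1 point per animal (circles, long sample codes; triangles, short sample codes) and the mean ± SD of each group beside the points. The PB animals of Sv2a sit between 5221 and 6378 and overlap the lower part of the VEH range, and the Sv2c groups cover one another.

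Of the 4 genes, 2 passed an adjusted p of 0.05 in PB against VEH, Sv2a and Sv2b, both lower, where 5.39% of all 13062 transcripts passed in either direction and 3.46% were lower. Neither reached the fold limit that the study set in addition, which 0.605% of transcripts reached along with the adjusted p. DESeq2 on the same design also called Sv2a (adjusted p = 0.00742) and Sv2b (adjusted p = 0.0301) and did not call Syt1 (adjusted p = 0.129). Without VEH animal 1 the PB difference of Sv2a was -0.13 on the log2 scale (adjusted p = 0.0211, edgeR quasi-likelihood F test), and without both VEH animal 1 and PB animal 2 it was -0.11 (adjusted p = 0.0355, edgeR quasi-likelihood F test).

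After LEV, the transcripts of its own target and of the partners lay near the VEH level. None of the 4 passed in LEV against VEH, where 0.00766% of all transcripts did (edgeR quasi-likelihood F test). At an unadjusted p under 0.05 the count was also 0 of 4, against 5.84% of all transcripts, and DESeq2 called 0 of 4. For Sv2a the difference of LEV from VEH was 0.01 on the log2 scale, with a 95% interval of -3.55% to 5.53% in level. For Sv2b it was -0.02, with an interval of -6.94% to 4.74%, and for Syt1 it was 0.01, with an interval of -5.27% to 7.51%. The ends of these 3 intervals thus lie between -6.94% and 7.51% of the VEH level 72 hours after the dose, which does not show that the levels were equal. The interval of Sv2c, from -19.8% to 12.2% around a difference of -0.08 on the log2 scale, was wider. The differences of LEV from VEH without VEH animal 1 were 0.01 for Sv2a, -0.01 for Sv2b, -0.04 for Sv2c and 0.01 for Syt1, and none passed.

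PB and LEV were also compared directly. Sv2a was lower after PB by 8.87% (log2 difference -0.13, SE 0.03, 95% interval -0.20 to -0.07, adjusted p = 0.0114, edgeR quasi-likelihood F test, Benjamini-Hochberg), and 13 of 14 PB levels were under the mean of LEV animals with that code form. It was the only one of the 4 to pass, where 4.45% of all transcripts passed and 2.78% were lower in PB, and it stayed under the fold limit, which 0.582% reached. Without VEH animal 1 its adjusted p was 0.0118. Sv2b differed by -0.12 (adjusted p = 0.0932) and Syt1 by -0.12 (adjusted p = 0.0988) in the edgeR quasi-likelihood F test, and 13 and 12 of 14 PB levels were under the corresponding LEV mean. Sv2c differed by 0.04 (adjusted p = 0.901, edgeR quasi-likelihood F test). Thus the order of mean Sv2a levels was PB, VEH and LEV from lowest to highest. PB differed from both other groups in the test, and no difference between VEH and LEV was detected. For Sv2b the order of means was PB, LEV and VEH, in which PB against VEH passed and PB against LEV did not. With only the groups compared in the fit, these calls were exchanged, with an adjusted p of 0.0947 against VEH and 0.0459 against LEV (edgeR quasi-likelihood F test). For Syt1 the order was PB, VEH and LEV, and for Sv2c it was LEV, PB and VEH, with no pair passing the test for either gene.

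**Figure D2:**
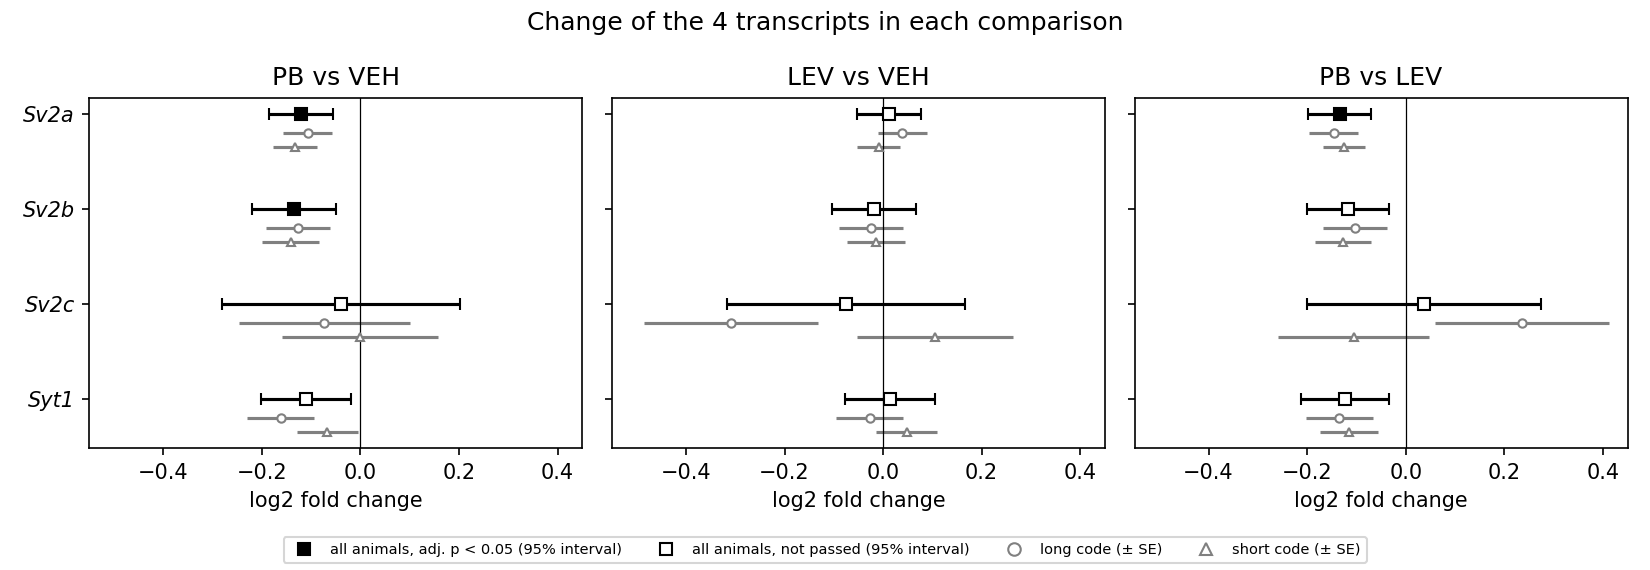
Log2 fold change of each gene in the 3 comparisons; squares are the fit over all animals with its 95% interval (filled where the adjusted p was under 0.05), and circles and triangles are the values within long and short sample codes with their SE. Filled squares are at -0.12 for Sv2a and -0.14 for Sv2b in PB against VEH and at -0.13 for Sv2a in PB against LEV.

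The effects were similar within both code forms for Sv2a and Sv2b. The PB difference from VEH for Sv2a was -0.11 on the log2 scale among animals with long codes and -0.13 among those with short codes, and for Sv2b it was -0.13 and -0.14. For Syt1 it was -0.16 and -0.07, and for Sv2c -0.07 and -0.00. The LEV difference of Sv2c had opposite signs, -0.31 with long codes and 0.10 with short codes, a gap of 0.41 (SE 0.24) whose adjusted p was 0.475 in the edgeR quasi-likelihood F test of the interaction. None of the 12 interaction tests for the 4 genes passed. Among all 13062 transcripts 9 passed in PB against VEH, 110 in LEV against VEH and 3 in PB against LEV. For LEV against VEH the fit over all animals called 1 transcript, whereas 346 were called with long codes alone and 6 with short codes alone. The low share called after LEV over all animals thus covers code forms whose LEV effects differed for some transcripts. Fitted alone, neither code form called Sv2a in PB against VEH (adjusted p = 0.284 with long codes and 0.130 with short codes, edgeR quasi-likelihood F test).

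The ratio of one gene to another within an animal does not depend on the scaling between libraries. Sv2b to Sv2a, Sv2c to Sv2a and Syt1 to Sv2a were compared between the 3 pairs of groups, 9 tests in all, and none passed (permutation test, two-sided, 100000 resamples within code form, adjusted p from 0.894 to 0.935), nor did any without VEH animal 1. The mean log2 ratio of Syt1 to Sv2a was -0.24 ± 0.12 in VEH, -0.22 ± 0.10 in PB and -0.23 ± 0.05 in LEV (SD), and that of Sv2b to Sv2a was -0.19 ± 0.16, -0.19 ± 0.09 and -0.21 ± 0.11. Unequal change of the members was thus not detected. Over all animals the difference with the lowest p was that of Sv2c to Sv2a, 0.19 higher in PB than in LEV (unadjusted p = 0.0994, permutation test). With long codes alone, Syt1 to Sv2a was at -0.068 in LEV against VEH (permutation test, unadjusted p = 0.00866, adjusted p = 0.0779). With short codes alone it was at 0.061 (adjusted p = 0.992, permutation test), and neither passed.

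Syt1 varied together with each Sv2 gene among the 41 animals once treatment and code form were removed. Its residual log2 CPM (counts scaled to library size) correlated with those of Sv2a at Pearson's r = 0.623 and Spearman's rho = 0.637 (adjusted permutation p = 0.00018 and 0.00024 over 6 pairs of genes), and r was 0.573 without the 2 animals farthest from the median of Sv2a. With Sv2b, r was 0.681 and rho 0.582 (adjusted permutation p = 0.00012 and 0.00081), and r was 0.574 without the 2 farthest animals. With Sv2c, r was 0.574 and rho 0.428 (adjusted permutation p = 0.00108 and 0.0107), and r was 0.404 without the 2 farthest animals. Within code forms, r of Syt1 with Sv2a was 0.775 in 18 animals with long codes and 0.561 in 23 with short codes, with Sv2b 0.746 and 0.657, and with Sv2c 0.467 and 0.657. All of these passed except Sv2c with long codes (adjusted permutation p = 0.0979). They were lower without the 2 farthest animals of each form, values that were not tested. With short codes r of Syt1 was then 0.452 with Sv2a, 0.435 with Sv2b and 0.313 with Sv2c. With long codes it was 0.539, 0.554 and 0.414. Without VEH animal 1, r of Syt1 was 0.624 with Sv2a, 0.688 with Sv2b and 0.592 with Sv2c (adjusted permutation p = 0.00015, 6e-05 and 0.00078). The r of the genes with summed levels of neuron markers in the same libraries differed by gene and list, given as a description with no test. With the general neuron list it was 0.443 for Syt1, 0.571 for Sv2a, 0.485 for Sv2b and 0.195 for Sv2c. With the GABA neuron list, r was 0.587 for Syt1, 0.416 for Sv2a, 0.581 for Sv2b and 0.536 for Sv2c, and with the hippocampal glutamatergic list it was 0.549, 0.643, 0.228 and 0.140 (41 animals). The part of neuron content in the correlations with Syt1 was not tested.

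Among the Sv2 genes themselves no pair passed over all animals. Over all 41 animals r was 0.289 for Sv2a and Sv2b (adjusted permutation p = 0.093), 0.293 for Sv2b and Sv2c (0.093) and 0.164 for Sv2a and Sv2c (0.337), with rho of 0.284, 0.165 and 0.132. Without the 2 farthest animals r was 0.275, 0.172 and 0.0236 in that order. Whether these correlations differ from those with Syt1 was not tested. Sv2a and Sv2b correlated at r = 0.616 in animals with long codes (adjusted permutation p = 0.0232) and at 0.172 in animals with short codes (0.391). Over the animals without VEH animal 1, r was 0.303, 0.278 and 0.188, and none passed. The plot of residuals shows VEH animal 9 and PB animal 2 far below the rest for Syt1.

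**Figure D3:**
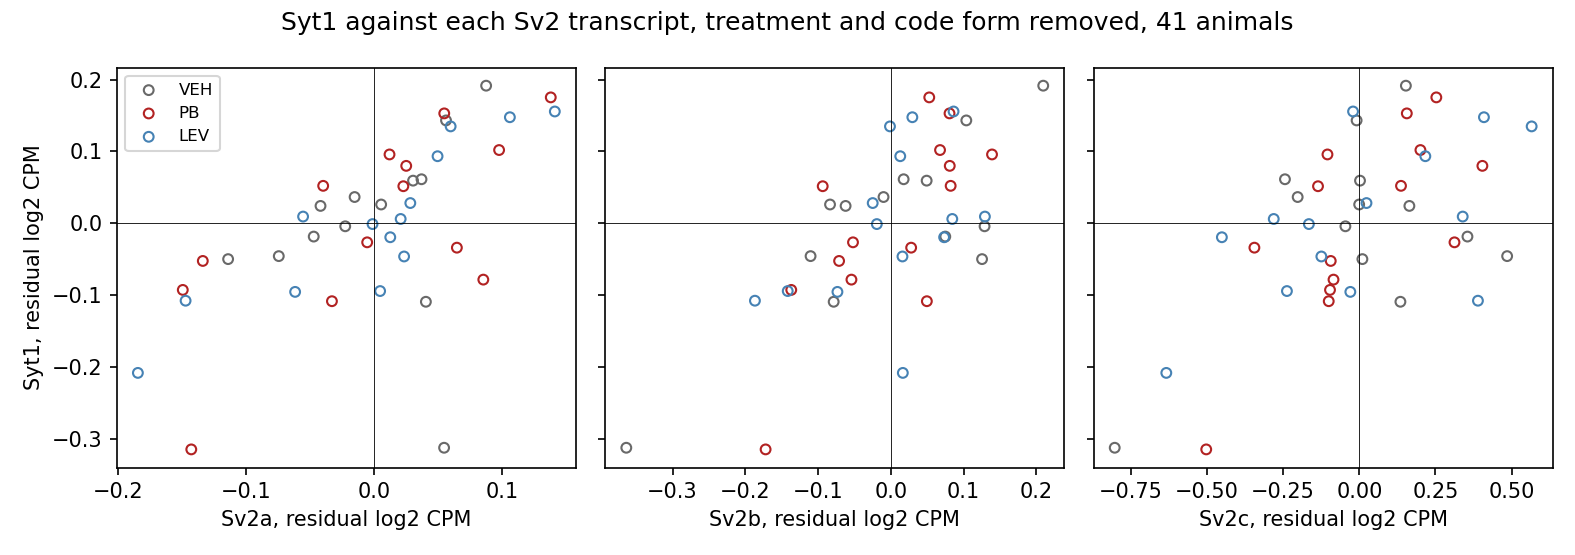
Residual log2 CPM of Syt1 against Sv2a, Sv2b and Sv2c after treatment and code form were removed, 1 point per animal (41 animals), coloured by treatment. Points rise from lower left to upper right in each panel, with r of 0.623, 0.681 and 0.574, and a VEH and a PB animal lie at -0.31 on the axis of Syt1.

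Across the transcripts of other genes with a mean of at least 50 normalized counts (11018 compared for each), those most like Sv2a in residual log2 CPM over the 41 animals included Slc6a17 (r = 0.813), a vesicular transporter of neutral amino acids, Slc12a5 (0.801), the chloride exporter KCC2, Scamp5 (0.799), a vesicle membrane protein, and Dnm1 (0.788), the dynamin that pinches off endocytic vesicles. Most like Sv2b were Dnajc6 (0.787), the auxilin that uncoats clathrin vesicles, B3galt2 (0.771), Cdk14 (0.769), Atp6v1b2 (0.764), a subunit of the vesicular proton pump, and Nalcn (0.763), a sodium leak channel. Of these transcripts, Dnm1, Dnajc6 and Atp6v1b2 were lower in PB than in VEH (edgeR quasi-likelihood F test, adjusted p of 0.00871, 0.0269 and 0.000270). The others named for Sv2a and Sv2b did not pass, where 5.39% of all 13062 transcripts passed and 3.46% were lower. Most like Sv2c were Gad2 (0.702), an enzyme that makes GABA, Prkar1a (0.686), Fam168a (0.665), Kcna2 (0.651), a potassium channel subunit, and Wdr7 (0.645). Among those most like Syt1 were Rgs7bp (0.900), which anchors regulators of G protein signalling, Scn8a (0.854), a sodium channel subunit, Plcb1 (0.849), a phospholipase, and Akap5 (0.838), a scaffold of postsynaptic kinases. None of the transcripts named for Sv2c and Syt1 passed in PB against VEH (edgeR quasi-likelihood F test). Syt1 stood at position 34 for Sv2b, 35 for Sv2c and 123 for Sv2a among the 11018, and Sv2b stood at position 1756 for Sv2a. The values come from the same libraries and share their depth and tissue makeup, so they are given without a test.

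The other genes of the vesicle were read from 3 lists. Among synaptotagmins other than Syt1, 14 of the 16 symbols were in the table and 12 transcripts were tested. In PB against VEH, 4 fell and 0 rose (median log2 difference -0.11, against 0.00 over all transcripts, of which 5.39% passed). They were Syt11 (-0.19, adjusted p = 0.00158), Syt17 (-0.21, 0.0113), Syt3 (-0.13, 0.0351) and Syt12 (-0.26, 0.0392) in the edgeR quasi-likelihood F test. Syt11, like Syt12, lacks the residues that bind calcium in Syt1, and Syt3 is a calcium sensor with high affinity. In LEV against VEH 0 of 12 passed (edgeR quasi-likelihood F test; 2 at an unadjusted p under 0.05; DESeq2, 0), and the lowest p belonged to Syt11 (-0.11, adjusted p = 0.562) and Syt17 (-0.12, adjusted p = 0.806). In PB against LEV 0 of 12 passed (edgeR quasi-likelihood F test; 4 at an unadjusted p under 0.05; DESeq2, 0), and the lowest p belonged to Syt3 (-0.11, adjusted p = 0.0790) and Syt12 (-0.22, adjusted p = 0.0853).

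The next list was of transcripts for the vesicle membrane and coat, the compartment in which SV2 resides. Of 26 tested, 12 fell and 0 rose in PB against VEH (median -0.13), where 5.39% of all transcripts passed. In PB against LEV 12 fell and 1 rose (median -0.13), where 4.45% of all passed. Those with the lowest p against VEH were Syp, encoding synaptophysin, an abundant vesicle protein (-0.21, adjusted p = 0.000489), Scamp1 (-0.14, 0.00100), Rab3a, a GTPase of vesicle docking (-0.24, 0.00122), Syn1, which tethers vesicles in clusters (transcript NM_001110782, -0.30, 0.00182), Slc32a1, the vesicular GABA transporter (-0.27, 0.00367), and Synpr, a relative of Syp (-0.20, 0.00527), in the edgeR quasi-likelihood F test. Syp had a mean of 18627 normalized counts in PB and 21534 in VEH. Against LEV they were Syp (-0.23, 0.000111), Rab3a (-0.26, 0.000530), the proton pump subunit Atp6v0c (-0.18, 0.00183), Scamp1 (-0.13, 0.00239), Slc32a1 (-0.28, 0.00246) and Syngr3 (-0.18, 0.00316) by the same edgeR test (adjusted p). Syn3, the synapsin expressed early in development, was the 1 that rose against LEV (0.33, adjusted p = 0.0271), and it was singled out after its value was seen. In LEV against VEH 0 of 26 passed (edgeR quasi-likelihood F test; 0 at an unadjusted p under 0.05; DESeq2, 0; median -0.01), and the lowest p belonged to Svop, a distant relative of the SV2 genes (-0.08, adjusted p = 0.856), and Rab3c (-0.14, adjusted p = 0.914).

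Genes of vesicle retrieval, the step in which SV2 and Syt1 are sorted back into vesicles, mostly did not pass. Of 21 transcripts tested, 4 fell and 1 rose in PB against VEH (median -0.09), where 5.39% of all transcripts passed. Dnm1 (-0.23, adjusted p = 0.00871) and the subunits Ap2m1 (-0.13, 0.0213), Ap2a2 (-0.10, 0.0269) and Ap2b1 (-0.08, 0.0280) of the clathrin adaptor AP-2 fell, and Picalm, a clathrin assembly protein, rose (0.14, 0.0417), in the edgeR quasi-likelihood F test. In PB against LEV, Dnm1 (-0.25, 0.00511) and Bin1 (-0.14, 0.0134) fell and Picalm (0.16, 0.0180) and Itsn1 (0.17, 0.0497) rose (adjusted p, edgeR quasi-likelihood F test; median -0.03), 4 of 21 beside 4.45% of all transcripts. In LEV against VEH 0 of 21 passed (edgeR quasi-likelihood F test; 3 at an unadjusted p under 0.05; DESeq2, 0), and the lowest p belonged to Ap2a2 (-0.10, adjusted p = 0.307) and Amph (-0.09, adjusted p = 0.687). Ap2m1 is the subunit that recognises tyrosine-based sorting signals, and SV2A carries such a signal.

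Several called counts were lower when single libraries were left out. Without VEH animal 1 the synaptotagmins called in PB against VEH were 3, the membrane and coat transcripts 12 and the retrieval transcripts 5. Without PB animal 2 they were 3, 11 and 5. Without both they were 2, 10 and 4, and of the 4 genes only Sv2a passed.

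**Figure D4:**
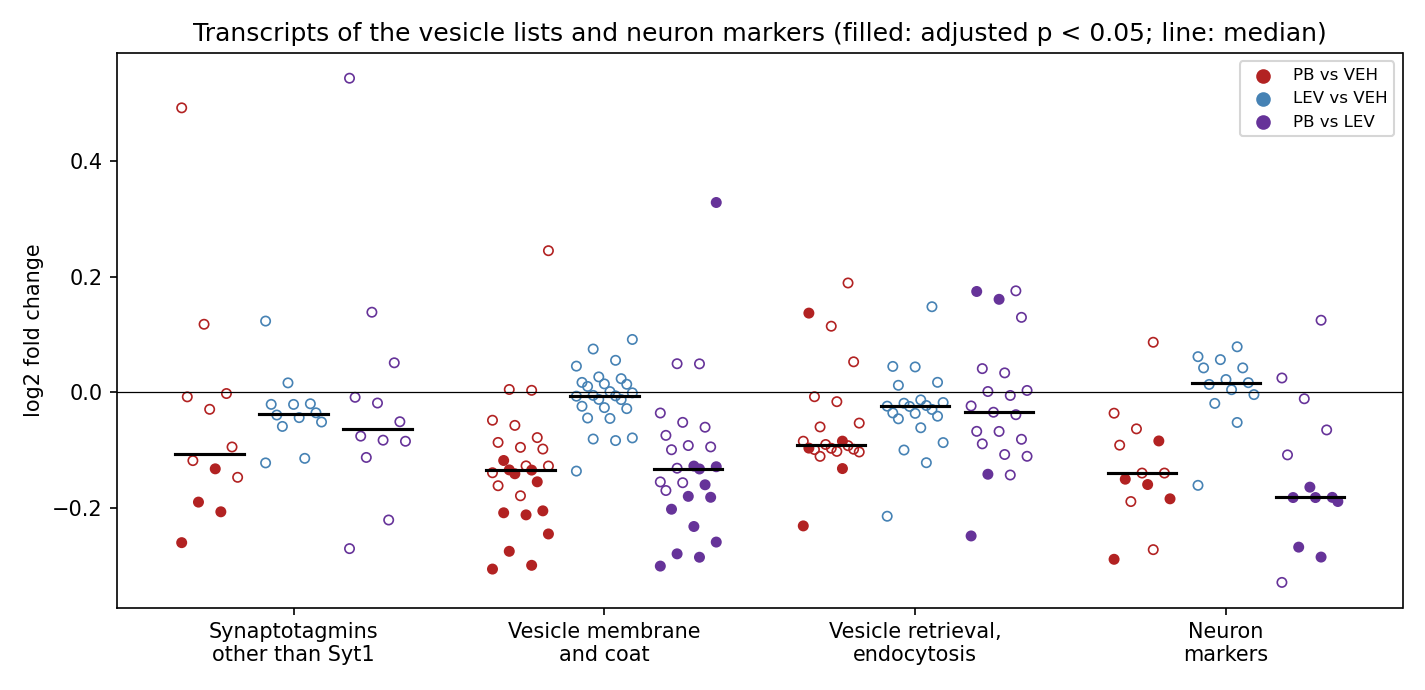
Log2 fold change of each tested transcript of the 3 vesicle lists and of the neuron markers in PB against VEH (red), LEV against VEH (blue) and PB against LEV (purple), filled where the adjusted p was under 0.05, with the median as a line. Medians lie at -0.11, -0.13, -0.09 and -0.14 in PB against VEH and between -0.04 and 0.02 in LEV against VEH, where no point is filled.

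Markers of cell types were read as well. Of 13 transcripts of general neuron markers, 5 fell and 0 rose in PB against VEH, beside 5.39% of all transcripts, and 7 fell in PB against LEV, beside 4.45% (edgeR quasi-likelihood F test). Without PB animal 2 the 5 became 3, and without PB animal 2 and VEH animal 1 it was also 3. The summed level of the list was 94332 to 107292 normalized counts in VEH, 78971 to 99351 in PB and 91613 to 105857 in LEV, and none of its transcripts was at 0 in all animals of a group. Its median log2 difference was -0.14 against VEH, beside -0.12 for Sv2a and -0.14 for Sv2b, and 12 of the 13 lay below 0. The list was not uniform. Rbfox3 (-0.06, adjusted p = 0.621), Map2 (-0.04, 0.845) and Elavl4 (0.09, 0.502) did not pass in PB against VEH (edgeR quasi-likelihood F test). Eno2 and Snap25 entered the list with more than a single transcript each, and Eno2 did so among the 5 that fell. Snap25 transcripts NM_001270575 and NM_030991 had the same values in every comparison, and both were among the 7, as were both Eno2 transcripts. The 5 and the 7 thus count transcripts and not separate genes. Among the 7 transcripts of GABA neuron markers, Sst and Slc32a1 fell in PB against VEH (-0.38 and -0.27 on the log2 scale, adjusted p = 0.00183 and 0.00367, edgeR quasi-likelihood F test), and among the 6 hippocampal glutamatergic markers Camk2a did (-0.26, adjusted p = 0.0364). Among 13 astrocyte transcripts, Gfap, the intermediate filament of astrocytes, was higher in PB than in VEH (0.32, adjusted p = 0.00241) and than in LEV (0.37, 0.000530), and transcript NM_019225 of the glutamate transporter Slc1a3 was lower in PB than in VEH (-0.16, 0.0286), in the edgeR quasi-likelihood F test. That transcript was at -0.18 in LEV against VEH (0.248) and 0.02 in PB against LEV (0.893), neither of which passed in the same test. The other tested Slc1a3 transcripts ran from -0.13 to 0.12 in PB against VEH, and none passed. Among 11 oligodendrocyte transcripts, Mobp was lower in PB than in LEV (-1.39, adjusted p = 0.0211, edgeR quasi-likelihood F test). Relative to VEH, Mobp was at -0.92 after PB (0.134) and 0.47 after LEV (0.923) in the same test, and neither passed. None of the 11 passed in PB against VEH, where 6 lay below 0. None passed in LEV against VEH, where 0 lay below 0 and 5 had an unadjusted p under 0.05. The part of a change in the makeup of the tissue in the results for Sv2a and Sv2b was not tested.

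Of the 23 transcripts of skeletal muscle markers 6 were tested, and Atp2a1, Myh4, Acta1 and Pvalb fell both in PB against VEH and in PB against LEV (edgeR quasi-likelihood F test), beside 5.39% and 4.45% of all transcripts. Pvalb (-0.83 against VEH, adjusted p = 0.0188) is also expressed by a class of hippocampal interneurons, so the list and its summed level are not confined to tissue outside the brain. For the whole list the summed level was 217 to 683 normalized counts in VEH, 194 to 424 in PB and 249 to 857 in LEV, with 5 transcripts at 0 in all PB animals. With that level as a covariate the PB difference of Sv2a from VEH was -0.15 on the log2 scale (adjusted p = 0.0400, edgeR quasi-likelihood F test), and with the choroid plexus level as a covariate it was -0.11 (adjusted p = 0.0283, edgeR quasi-likelihood F test). The difference of Sv2b was then -0.16 (adjusted p = 0.104) and -0.13 (adjusted p = 0.0641).

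When each of the 41 animals was left out in turn, Sv2a passed in all 41 fits in PB against VEH (adjusted p from 0.00983 to 0.0412) and in all 41 in PB against LEV (0.00344 to 0.0269) in the edgeR quasi-likelihood F test. Sv2b passed against VEH in 13 of 41 fits, those without VEH animal 2, 4, 8, 9 or 13, PB animal 4, 5, 6, 9, 11 or 12, or LEV animal 8 or 9, and its call was lost without any of the others. Against LEV it passed in 1 of 41, without VEH animal 9 (adjusted p = 0.0450, edgeR quasi-likelihood F test). Syt1 passed in 0 of 41 in either comparison (lowest adjusted p of 0.0507 and 0.0531, edgeR quasi-likelihood F test).

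**Figure D5:**
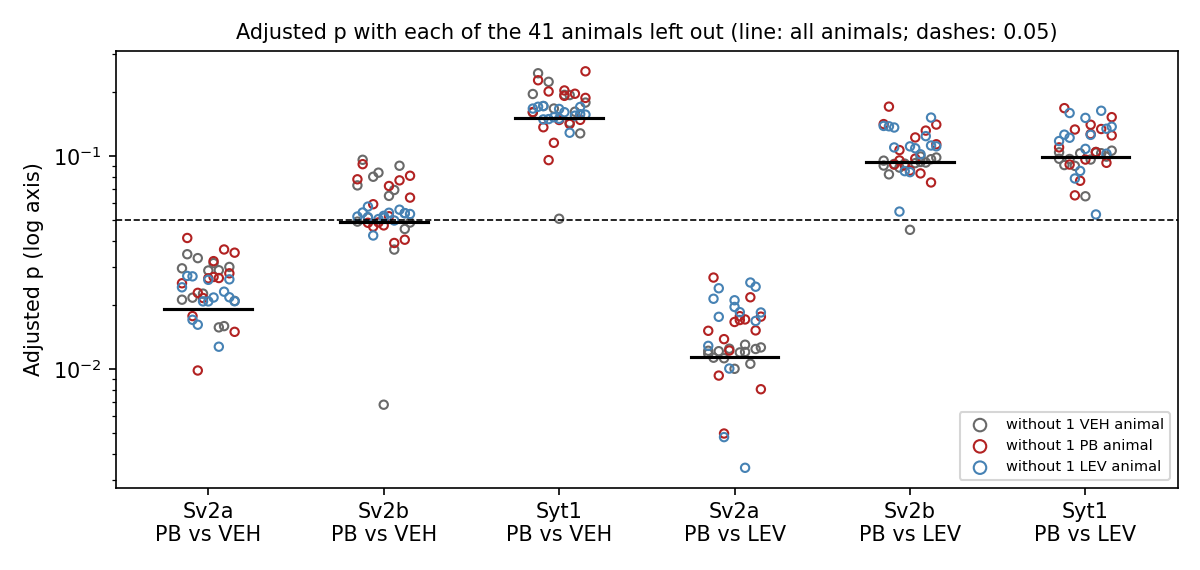
Adjusted p of Sv2a, Sv2b and Syt1 in PB against VEH and PB against LEV (log axis) when 1 animal was left out, coloured by the group of that animal, with a line at the value over all animals and dashes at 0.05. All points of Sv2a lie below the dashes, those of Sv2b fall on both sides and those of Syt1 lie above them.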

How the data were processed

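RNA from perfused hippocampus of single pups was sequenced as paired 150-base reads after NEBNext Ultra library preparation. The authors aligned the reads with STAR 2.7.3a to the rn6 build and quantified RefSeq transcripts with the expectation-maximization tool of Partek. The deposited values are expected counts per transcript and animal, not normalized, and 13.7% of them are not whole numbers, although those of Sv2a, Sv2b, Sv2c and Syt1 all are. Counts split between transcripts of a gene depend on that estimation step.

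Expected counts were rounded and tested with edgeR 4.0.16 (R 4.3.3) on 41 animals in 1 model with treatment and form of sample code, with TMM factors and filterByExpr by treatment (13062 of 15516 transcripts). The quasi-likelihood test was adjusted by Benjamini-Hochberg over all tested transcripts and called at 0.05, and the study's fold limit is referred to beside. SE is the log2 fold change over the square root of F. Normalized counts are counts divided by the effective library of the animal and multiplied by the mean effective library, and log2 CPM used a prior count of 2. DESeq2 1.42.0, other scalings, filters, batch terms and samples were alternatives, as was each animal left out. The scripts were tested on simulated counts. The 4 genes and all lists were chosen with earlier results of these data known. Genes named from a list were the up to 6 with the lowest p among those passing, or otherwise the 2 with the lowest p. The genes most like each of the 4 were the 5 with the highest r, some of which are not reported here. Each sample was a separate animal.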

Additional observations from a re-analysis of the deposited data

Results flagged for a closer look

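The VEH animal that the labels mark as excluded entered no main comparison, only the alternative fits below that name it. Its library gave values outside the range of the 41 animals. Sv2a was at 7475 normalized counts, against at most 7040 in any other animal and 6748 in VEH. Sv2c was at 145, against at most 95.2, and Syt1 at 6291, against at most 6152. Sv2b lay below every animal, at 3324 against at least 4385. It also had 115 raw counts of Eif2s3y and 204 of Ddx3, fewer than every animal apart from VEH animal 1.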

How the results depend on the processing

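Log2 differences are given with the adjusted p of the edgeR quasi-likelihood F test in brackets. Across the 18 alternatives besides leaving out 1 animal, Sv2a passed in 16 in PB against VEH and in 16 in PB against LEV. It did not pass in either code form alone, at -0.11 (0.284) and -0.13 (0.130) against VEH and -0.15 (0.0838) and -0.12 (0.217) against LEV, with fewer animals fitted. Sv2b in PB against VEH passed in 6 and did not in 12, at -0.13 (0.0517) with DESeq2 size factors, -0.13 (0.0554) with upper-quartile factors, -0.13 (0.0677) with no code form term, -0.13 (0.0616) with code form by treatment, -0.13 (0.311) and -0.14 (0.223) with long and short codes alone, -0.092 (0.427) with the excluded animal, -0.13 (0.0947) with only both groups compared, -0.13 (0.0641) and -0.16 (0.104) with choroid plexus and skeletal muscle as covariates, and -0.12 (0.114) without VEH animal 1 and PB animal 2. With animal number as a replicate block it was -0.13 (0.0793), and the block changed no other call of the 4 genes. In residuals over all transcripts, 11 of 40 same-number pairs correlated above 0.1 and 1 of 41 animals correlated best with its own number. The labels do not say whether a number marks a litter, and these correlations cannot show that it does not. In PB against LEV Sv2b passed, at -0.12 (0.0459), with only those groups fitted. The causes were not tested.

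Signs turned only among values that did not pass. In LEV against VEH these were Syt1 at -0.022 with long codes, Sv2a at -0.0100 and Sv2c at 0.10 with short codes, and Sv2a at -0.0058, Sv2b at 0.025 and Syt1 at -0.0034 with the excluded animal. In PB against LEV Sv2c was -0.10 with short codes and -0.078 with the muscle covariate, and in PB against VEH it was 0.028 without VEH animal 1 and PB animal 2, a setting chosen after seeing the data. Log2 ratios turned for Syt1 to Sv2a with long codes (-0.059 in PB and -0.068 in LEV against VEH), for Sv2b to Sv2a with short codes (0.0011 in PB against VEH, 0.0047 in LEV against VEH and -0.0037 in PB against LEV) and with the excluded animal (0.063 in PB and 0.047 in LEV against VEH), and for Sv2c to Sv2a with short codes (0.10 in LEV against VEH). The r of Sv2a and Sv2b passed with long codes (0.616) and without removal of treatment and code form (0.470), and that of Sv2c and Syt1 did not with long codes (0.467).

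With 1 animal left out, Sv2b in PB against VEH ran from -0.16 to -0.12 and in PB against LEV from -0.13 to -0.11. Signs turned in 1 of 41 fits for Sv2b in LEV against VEH (-0.046 to 0.00054), Syt1 in LEV against VEH (-0.011 to 0.031), Sv2c in PB against LEV (-0.0041 to 0.088) and Sv2c in PB against VEH (-0.093 to 0.0056). The ratio of Sv2b to Sv2a in PB against VEH ran from -0.044 to 0.014, and that of Syt1 to Sv2a from -0.019 to 0.029 in PB and from -0.028 to 0.014 in LEV against VEH. The count of all transcripts called in PB against VEH was 704, and ran from 442 without PB animal 7 to 891 without PB animal 5. In PB against LEV it was 581, and ran from 283 to 778 by the same animals. In LEV against VEH it was 1, and ran from 0 to 5. Over the other alternatives these counts ran from 64 with long codes to 1057 with DESeq2 after subtraction of the code form, from 74 with the muscle covariate to 1093 with that DESeq2 fit, and from 0 to 346 with long codes. In the order PB against VEH, PB against LEV and LEV against VEH, they were 410, 288 and 0 with no code form term, 447, 457 and 0 with the block, 392, 174 and 0 with the excluded animal, and 200 in PB against VEH with the muscle covariate. With long codes PB against LEV had 81, and with short codes 132. The part of the calls in PB against VEH that were lower was 64.2%, and over the alternatives and animals left out it ran from 57.5% with short codes alone and with the muscle covariate to 71.4% with no filter on low counts.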
